A study of Melianthus elongatus with 11 samples.

Results

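The enzymes described here build flavonols, anthocyanins and proanthocyanidins, and were followed in 11 RNA-seq libraries of the black-nectared shrub Melianthus minor, also known as M. elongatus. They were chosen by the closest Arabidopsis locus that the authors' table gives for each contig, an assembled transcript sequence. The 10 loci were CHS (AT5G13930), CHI (AT3G55120), F3H (AT3G51240), F3'H (AT5G07990), FLS1 (AT5G08640), DFR (AT5G42800), LDOX (AT4G22880), BAN (AT1G61720), GSTF12 (AT5G17220) and UGT78D2 (AT5G17050). Of 68651 contigs listed, 28 had a member as their closest locus, and 12 of these reached a normalised read count of at least 10 in at least 2 libraries. Those 12 came from 9 loci. BAN, the reductase that opens the proanthocyanidin branch, was the closest locus of 0 contigs in the table.

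Flavonoids are made from a phenylpropanoid acid and malonyl-CoA. Chalcone synthase (CHS) joins them, chalcone isomerase (CHI) closes the ring, and flavanone 3-hydroxylase (F3H) and flavonoid 3'-hydroxylase (F3'H) add hydroxyl groups. The resulting dihydroflavonols can go either way. Flavonol synthase (FLS1) turns them into colourless flavonols, which screen ultraviolet light in leaves, while dihydroflavonol reductase (DFR) and leucoanthocyanidin dioxygenase (LDOX, also called anthocyanidin synthase) turn them into coloured anthocyanidins. In Arabidopsis the glutathione S-transferase GSTF12 (TT19) is needed to bring anthocyanins to the vacuole, and UGT78D2 attaches glucose to flavonols and anthocyanidins. Also in Arabidopsis, the R2R3-MYB factors MYB11, MYB12 and MYB111 switch on the early genes and FLS1, and a complex of a MYB such as MYB113 or TT2, a bHLH such as TT8, GL3 or EGL3, and TTG1 switches on the late ones.

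Leaves and nectaries were taken from plants grown outdoors in a university arboretum, and neither a treatment nor an age of the plants is in the labels. The libraries carry 4 codes: code 0 (libraries 0-A and 0-B, n = 2), code 1 (1-A, 1-B and 1-C, n = 3), code 2 (2-A, 2-B and 2-C, n = 3) and code L (L-A, L-B and L-C, n = 3). The sources used here do not explain these codes. The filed labels cross the codes: 0-A, 0-B and 1-A are filed as mature leaf, 1-B and 1-C as presecretory nectary, 2-A, 2-B and 2-C as secretory nectary, and L-A, L-B and L-C as postsecretory nectary. The stage of 2-A is secretory, but its title has presecretory. Per the study's design text, some tissue around the nectary was left on at dissection and removed later. No label says whether the libraries of a code were separate plants. The p-values then describe the spread among these libraries only, which may be technical.

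Marker genes went against several filed labels. The summed normalised read count of 10 photosynthesis loci was 30745 to 52291 in the libraries filed as postsecretory nectary (code L) and 1863.7 to 3179.3 in the other 8, those filed as leaf included. The 5 nectary loci in the table, of 6 listed, summed to 19.2 to 118 in code L and to 1527.5 to 11869 elsewhere. SWEET9, the sugar exporter that nectar secretion needs in Arabidopsis, was at 1.07 and 2.86 in code 0 and at 2037 to 5292 in codes 1 and 2, and MYB21 and MYB24 were also lower in code 0. CRC and CWINV4 of the same list went the other way, at 1041 and 1351 and at 58.2 and 38.3 in code 0 against 62.0 to 498 and 0.28 to 14.2 in codes 1 and 2. Against the sum, CWINV4 in code L (15.5, 23.5 and 15.9) lay above every library of codes 1 and 2. CRC in code L (4.91 at most) lay below all other libraries. The 6 floral identity loci summed to 22.8 to 40.0 in code L and 1420.5 to 2647.3 elsewhere. Between libraries of code 2 the Pearson r of log2 values was 0.767 to 0.878, below the 0.930 to 0.967 seen within code 1. For this reason codes are compared with codes, without naming their tissue or stage.

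Opposed sets of flavonoid contigs stood on either side of code L, as the plot of the 12 contigs shows. FLS1, the F3'H contig, the CHS contig Mm7022 and a pair of DFR contigs were higher in all 3 libraries of code L than in any of the other 8. The other CHS contig, a further DFR contig, LDOX, GSTF12 and UGT78D2 were lower in all 3 libraries of code L than in any of the other 8. CHI and F3H overlapped with code L. How many of all contigs kept also lay wholly above or below code L was not counted, so this separation is not shown to be special to these contigs. By the limma rule given below, 69.4% of all contigs kept differed between code L and the mean of the other codes. Of the 12 contigs, 4 reached the filter of 10 in 2 libraries through code L alone and 5 through the other codes alone, which favours such separation. The values are the authors' normalised read counts, which the authors scaled in a way the sources used here do not state, and contig lengths were not used, so levels are compared between libraries and not between genes. In such bulk samples, fewer cells of a type and less RNA per cell cannot be told apart.

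**Figure D1:**
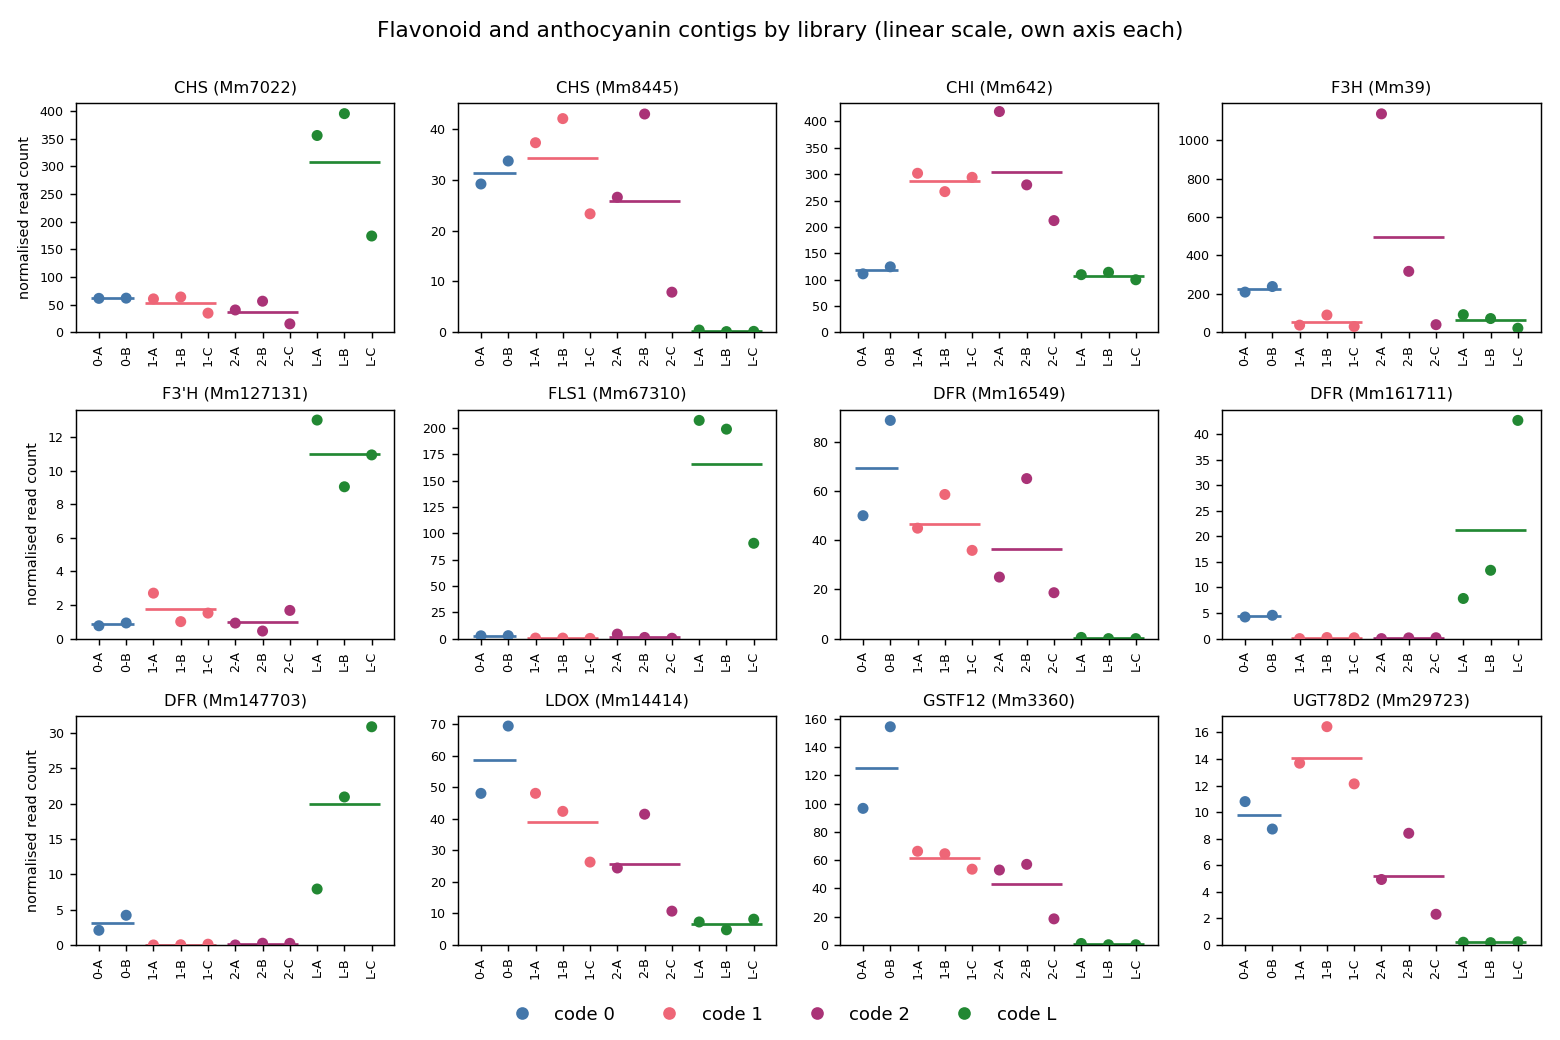
Normalised read count of each of the 12 flavonoid contigs kept, by library (x axis: the 11 libraries, coloured by code; y axis: normalised read count, linear, with its own range in each panel). Points are libraries and the bar is the mean of a code. FLS1 lies at 90.6 to 207 in code L and at 0.173 to 4.28 elsewhere, and GSTF12 at 0.157 to 1.06 in code L and 18.5 to 154 elsewhere.

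The first enzyme, CHS, came as 2 kept contigs that stood on opposite sides of code L. Contig Mm7022 was at 61.3 and 61.7 in code 0, at 60.4, 63.8 and 34.6 in code 1, at 40.3, 56.2 and 15.1 in code 2, and at 356, 396 and 174 in code L. Code L was highest (309 ± 118, SD, n = 3), and code 1 overlapped with codes 0 and 2, which did not overlap each other. In the limma fit over all contigs kept, the mean of codes 0, 1 and 2 was lower than code L by a log2 difference of -2.61 (SE 0.387, adjusted p = 0.00011). Contig Mm8445 was at 29.2 and 33.7 in code 0, at 37.3, 42.1 and 23.3 in code 1, at 26.6, 43.0 and 7.90 in code 2, and at 0.434, 0.126 and 0.173 in code L. It was nearly silent in code L and level among the other codes, with overlapping ranges. The same comparison gave it a log2 difference of 4.55 (SE 0.408, adjusted p = 3.97e-06). Among codes 0, 1 and 2 the CHS contigs were not opposed. Both were lowest there in 2-C (15.1 and 7.90), and code 2 was at -0.63 from code 1 for both. Code 1 was at -0.26 and 0.08 from code 0, and none of these differences was called. Here and below, adjusted p-values come from limma with Benjamini-Hochberg adjustment over all contigs kept. The call needed 2 things: an adjusted p below 0.05, and a log2 difference of 1 or more in size. Adding 1 before the log2 makes changes of low contigs look smaller.

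CHI had 1 contig kept, Mm642. It was at 111 and 124 in code 0, at 302, 267 and 294 in code 1, at 419, 279.7 and 212 in code 2, and at 109, 114 and 99.6 in code L. All 6 libraries of codes 1 and 2 lay above all 5 of codes 0 and L, whose ranges overlapped each other. Code 1 was higher than code 0 by a log2 difference of 1.28 (SE 0.285, adjusted p = 0.00663) and code 2 by 1.31 (SE 0.285, adjusted p = 0.00679). Without library 0-A neither was called (1.20 and 1.23). Without 0-B (1.39), or with codes 0 and 2 fitted alone, the rise in code 2 was not called. The difference from code L was 0.99 (adjusted p = 0.00132), just under the size threshold. It turned to -0.07 when libraries were scaled by median ratios, so no direction is given for CHI against code L.

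F3H, as contig Mm39, spread most among libraries of a single code. Its normalised read count was 209 and 238 in code 0, 37.0, 89.6 and 29.4 in code 1, and 91.5, 71.3 and 21.0 in code L. In code 2 it ran from 39.4 in 2-C through 317 in 2-B to 1137 in 2-A (498 ± 571, SD, n = 3). Code 0 lay above codes 1 and L in every library, but the limma fit, which shares its spread with code 2, did not call code 1 against code 0 (log2 difference -2.25, SE 1.11, adjusted p = 0.161). Code 2 was not called against code 1 either (2.38, SE 0.995, adjusted p = 0.345). Without library 2-C all 3 of its comparisons that involve codes 1 or L were called: code 1 lower than code 0 (-2.25), code 2 higher than code 1 (3.67), and the mean of codes 0, 1 and 2 higher than code L (1.81, against 1.38 and adjusted p = 0.144 with every library). Library weights, which count a deviating library less, also called the first (-2.63) and the second (3.28).

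F3'H sets the second hydroxyl of the B ring, as in quercetin and cyanidin. Its contig Mm127131 was at 0.766 and 0.931 in code 0, at 2.71, 1.01 and 1.52 in code 1, at 0.925, 0.451 and 1.68 in code 2, and at 13.0, 9.05 and 10.9 in code L. It was low in every library outside code L, where it was lower by a log2 difference of -2.48 (SE 0.304, adjusted p = 2.97e-05). A further contig of the same locus, Mm204229, missed the filter. It was at 7.46 and 8.35 in code 0 and at no more than 0.043 in any other library. The 5 contigs of F3'H summed to 9.78 and 10.3 in code 0 and to 14.4, 19.8 and 21.4 among the libraries of code L. Code 1 gave sums from 2.70 to 4.77, and code 2 from 2.98 to 4.57. On that sum code 0 lay between code L and the rest: code 1 was lower than code 0 by -1.29 (SE 0.297, adjusted p = 0.00719) and code 2 by -1.27 (SE 0.297, adjusted p = 0.0076). Both calls were lost without 0-A (-1.32 and -1.31) or 0-B (-1.25 and -1.24), with differences about as large, and with a pseudocount of 5 (-0.81 for each).

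The flavonol branch point, FLS1, stood far higher in code L than in the rest. Its only contig, Mm67310, was at 207, 199 and 90.6 in code L. It was at 2.66 and 2.79 in code 0, at 0.508, 0.491 and 0.173 in code 1, and at 4.28, 1.10 and 0.343 in code 2. The mean of codes 0, 1 and 2 was lower than code L by a log2 difference of -6.07 (SE 0.404, adjusted p = 6.44e-07), and no alternative lost the call (-7.02 to -4.62). The contig passed the filter through code L alone, so a difference in this direction was fixed beforehand and the repeats add no support. Among the low libraries, code 0 lay above every library of code 1, but the difference of -1.43 did not pass (SE 0.542, adjusted p = 0.072). It passed when codes 0 and 1 were fitted alone.

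DFR, which commits dihydroflavonols to anthocyanins, had 7 contigs, and the 3 kept fell into both sets. Contig Mm16549 was at 49.9 and 88.6 in code 0, at 44.9, 58.5 and 35.8 in code 1, and at 25.0, 65.0 and 18.6 in code 2. In code L it was at 0.483 in L-A and listed at 0 in L-B and L-C. The order of the code means was 0, 1, 2 and L, with overlap between neighbours except before code L. Its log2 difference from code L was 5.35 (SE 0.358, adjusted p = 6.53e-07).

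The other DFR contigs were near 0 in codes 1 and 2, low in code 0 and highest in code L. Contig Mm161711 was at 4.23 and 4.56 in code 0, at 0, 0.21 and 0.163 in code 1, at 0, 0.141 and 0.17 in code 2, and at 7.85, 13.4 and 42.7 in code L. Contig Mm147703 was at 2.08 and 4.21 in code 0, at 0, 0.031 and 0.11 in code 1, at 0, 0.248 and 0.231 in code 2, and at 7.92, 20.9 and 30.9 in code L. For both, the order was code L, code 0 and then codes 1 and 2, with no overlap except between codes 1 and 2. Against code L the mean of codes 0, 1 and 2 was lower by -3.23 (SE 0.422, adjusted p = 4.6e-05) and -3.44 (SE 0.387, adjusted p = 1.71e-05). Code 1 was lower than code 0 by -2.27 (adjusted p = 0.0123) and -1.94 (adjusted p = 0.0174), and code 2 was lower than code 0 by -2.29 (adjusted p = 0.013) and -1.79 (adjusted p = 0.0269). These 4 calls between low values were lost without 0-A (-2.31, -2.32, -2.34 and -2.17), without 0-B (-2.22, -1.56, -2.25 and -1.42) and with a pseudocount of 5. The call of Mm147703 in code 2 was also lost without 2-A (-1.69). Without L-B or L-C neither contig passed the filter.

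LDOX followed the order 0, 1, 2 and L. Its contig Mm14414 was at 48.1 and 69.4 in code 0, at 48.1, 42.4 and 26.3 in code 1, at 24.4, 41.5 and 10.7 in code 2, and at 7.29, 4.81 and 8.18 in code L. The ranges of neighbouring codes overlapped except that of code L, which lay below all others. The difference from code L was 2.30 (SE 0.357, adjusted p = 0.000149). Code 2 did not pass against code 0 (-1.33, SE 0.48, adjusted p = 0.0628), but passed with libraries scaled to equal totals (-1.48), with a pseudocount of 5 (-1.18) and without 2-B (-1.77).

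The glutathione S-transferase GSTF12 came as a single contig, Mm3360, with the same order. It was at 96.6 and 154 in code 0, at 66.3, 64.5 and 53.6 in code 1, at 53.0, 57.0 and 18.5 in code 2, and at 1.06, 0.163 and 0.157 in code L. Code 0 lay above every library of codes 1 and 2, which overlapped, and code L lay far below. The difference from code L was 5.58 (SE 0.344, adjusted p = 4.09e-07). Code 2 was lower than code 0 by -1.65 (SE 0.461, adjusted p = 0.0233), a call that was lost without 0-A (-1.98), without 0-B (-1.31), with a pseudocount of 0.1 and with only these codes in the fit. Code 1 was at -0.99 from code 0 (adjusted p = 0.139).

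The glucosyltransferase UGT78D2 was highest in code 1. Its contig Mm29723 was at 10.8 and 8.73 in code 0, at 13.7, 16.4 and 12.1 in code 1, at 4.93, 8.41 and 2.31 in code 2, and at 0.206, 0.175 and 0.235 in code L. No ranges of neighbouring codes overlapped. The difference from code L was 3.01 (SE 0.308, adjusted p = 9.23e-06). Code 2 against code 1 did not pass (-1.40, SE 0.369, adjusted p = 0.13), and passed without 2-B (-1.76). A further contig of the locus, Mm225269, missed the filter. It was at 8.24, 4.35 and 0.295 in code L and at no more than 0.068 elsewhere. Another, Mm179339, reached 11.98 in 1-B alone.

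For CHS, DFR and UGT78D2 the make-up of the locus sum differed between code L and the rest, and the plot of contig shares displays CHS and DFR. Of the summed normalised read count of CHS, Mm7022 made up 45.0% to 66.4% in codes 0, 1 and 2 and 97.5% to 99.3% in code L. Mm8445 made up 29.7% to 41.7% and 0.0315% to 0.121%. Of the DFR sum, Mm16549 held 72.6% to 92.9% in codes 0, 1 and 2 and 0% to 2.66% in code L. Contigs Mm161711 and Mm147703 held 35.3% to 51.3% and 37.2% to 55.3% of the sum in code L, and at most 6.15% and 3.79% elsewhere. For UGT78D2, Mm29723 made up 57.7% to 99.4% of the sum outside code L and 2.44%, 3.87% and 44.3% within it. These shares are of reads, not per length, and similar contigs can share reads. Whether the contigs of a locus are separate genes, alleles or pieces of a transcript was not tested.

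**Figure D2:**
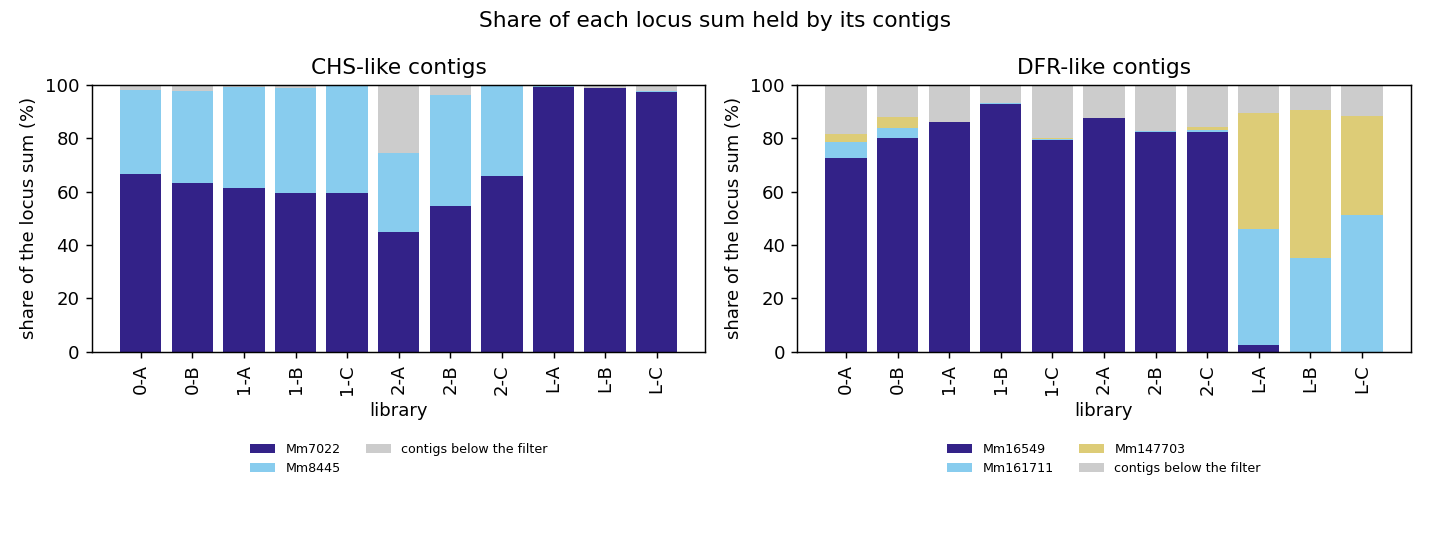
Share of the summed normalised read count of CHS (left) and DFR (right) held by each contig, by library (x axis: the 11 libraries; y axis: percent of the locus sum), with contigs below the filter in grey. DFR Mm16549 holds 72.6% to 92.9% outside code L and at most 2.66% within it, and CHS Mm7022 holds 97.5% to 99.3% within it.

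Summing contigs evened out some of these differences. The DFR sum was 68.8 and 111 in code 0, 52.2, 63.0 and 45.1 in code 1, 28.5, 78.9 and 22.6 in code 2, and 18.2, 37.9 and 83.1 in code L. Its ranges in code L and in the other codes overlapped, and the difference did not pass (0.51, SE 0.434, adjusted p = 0.286). Its sign changed with libraries scaled to equal totals (-0.02) or by median ratios (-0.53), and without L-A (-0.01). The CHS sum was 92.3 and 97.6 in code 0, 98.3, 107 and 58.1 in code 1, 89.6, 103 and 23.0 in code 2, and 359, 400.1 and 179 in code L. It stayed highest in code L, by -1.90 for the other codes (SE 0.415, adjusted p = 0.00111). The UGT78D2 sum was 10.9 and 8.79 in code 0, 15.3, 28.5 and 15.0 in code 1, 5.65, 9.90 and 2.50 in code 2, and 8.45, 4.52 and 0.53 in code L. Its difference of 1.36 (SE 0.493, adjusted p = 0.0226) was lost at equal totals (0.89), under median ratios (0.48), with a pseudocount of 5 (0.80), with library weights (0.90) and without L-C (0.61). The sums of CHI, F3H and LDOX differed little from their leading contigs, which held 92.6% to 99.3%, 93.2% to 99.7% and 89.8% to 100% of them. The CHI sum was 117 and 134 in code 0, lay between 271 and 306 in code 1 and between 214 and 422 in code 2, and reached 106 to 121 in code L. The F3H sum was 219 and 247 in code 0, lay between 30.4 and 93.1 in code 1 and between 40.6 and 1141 in code 2, and reached 22.5 to 94.5 in code L. The LDOX sum was 49.9 and 71.2 in code 0, lay between 28.1 and 49.3 in code 1 and between 11.2 and 45.8 in code 2, and reached 5.16 to 9.11 in code L.

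Among codes 0, 1 and 2 the share of members called was near that of the whole table. Between code 1 and code 0, 3 of 12 contigs were called, against 25.8% of all 26053 contigs kept: CHI was higher (13.6% of all contigs were), and the DFR contigs Mm161711 and Mm147703 were lower (12.2% were). On locus sums 2 of 9 were called, CHI higher (1.21) and F3'H lower, against 22.2% of 12123 loci. Between code 2 and code 0, 4 of 12 contigs were called, against 24.0% of all, with CHI higher (11.5% of all were) and GSTF12 and the same DFR contigs lower (12.5% were). On locus sums 3 of 9 were called, CHI higher (1.23) and F3'H and GSTF12 lower, against 22.7% of all loci. Between code 2 and code 1, limma called 0 of 12 contigs and 0 of 9 loci, where 1.17% of all contigs and 1.37% of all loci were called. At an unadjusted p under 0.05 there were 2 contigs (F3H and UGT78D2), beside 3315 of all 26053. Among locus sums there were again 2, beside 1301 of all 12123. The comparisons share libraries and are not independent of each other. Leaving out 0-A or 0-B keeps a single library in code 0, so no count is given for it. Leaving out L-B or L-C left 1 member contig called between codes 1 and 0, of 10 and 9 tested, beside 6650 and 6678 of all contigs. Between codes 2 and 0 it left 2, beside 6181 and 6169. The DFR contigs Mm161711 and Mm147703 were then below the filter and not tested. Without 2-C there were 5 between codes 1 and 0 (7492 of all 25659). Without 2-B there were 7 between codes 2 and 0 (5544 of all 25494). Without 2-B or without 2-C there was 1 between codes 2 and 1, beside 819 and 1458 of all contigs.

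Against code L, 10 of 12 contigs were called, where 69.4% of all contigs were. Of these, 5 were higher in the mean of codes 0, 1 and 2 (55.5% of all contigs were) and 5 were lower (13.8% were). The filter weighs on this count: 4 contigs reached it through code L alone and 5 through the other codes alone, so those 9 had to differ, and the count supports nothing by itself. On locus sums 6 of 9 were called, against 63.6% of all loci. LDOX, GSTF12 and UGT78D2 were higher (50.3% of loci were), and CHS, F3'H (-1.66, SE 0.222, adjusted p = 2.56e-05) and FLS1 were lower (13.4% were). The median log2 difference was 1.18 over the 12 contigs and 1.20 over all contigs kept. That shift of all contigs went with the scaling, since it was 0.661 at equal totals and 0.0957 under median ratios, and the share of called contigs that were higher went from 80.1% to 65.1% and 44.1%. The members' counts were 5 higher and 5 lower under all 3 scalings, which the filter largely fixes and which is no support. Relative to the median of all contigs as deposited, GSTF12 stood at 4.38, DFR Mm16549 at 4.15, CHS Mm8445 at 3.35, UGT78D2 at 1.81 and LDOX at 1.10. On the other side F3'H stood at -3.68, CHS Mm7022 at -3.81, the DFR contigs Mm161711 and Mm147703 at -4.44 and -4.65 (log2 differences of -3.23 and -3.44 before the shift) and FLS1 at -7.27. The marker sums given above moved with the same split of libraries, as did those of 10 epidermis and cuticle loci (2519 to 5625 in code L, 655 to 2313 elsewhere). LTP1 made up most of that sum, and its code L values (2081, 2166 and 5122) overlapped with code 1. GPAT4 was at most 1.07 in code L but at 5.08 and 6.89 in code 0, and ATML1 overlapped. CER1, CER6, FDH, PDF2, LACS2, WIN1 and PDF1 were higher in code L than in any other library. The sums of the 7 pollen and tapetum loci in the table, of 12 listed, were 62.4 to 83.0 in code L and 85.1 to 258 elsewhere. Within that list LAP6, a CHS-like polyketide synthase of the tapetum, was listed at 0 in both libraries of code 0. CYP703A2 (0.239 and 0.59) and CYP704B1 (0.782 and 1.76) were also lower there than anywhere in codes 1 and 2. Yet MS2 (46.3 and 46.7), TKPR2 (41.4 and 35.5) and ACOS5 (18.7 and 15.8) were higher there than anywhere in codes 1 and 2. AGP6 in code 0 (74.3 and 51.6) lay below code 1 and overlapped with code 2. Against the sum, TKPR2 and ACOS5 were higher in code L than in codes 1 and 2, while AGP6, MS2 and CYP703A2 were lowest in code L. The part of these markers in the differences of the members was not tested.

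**Figure D3:**
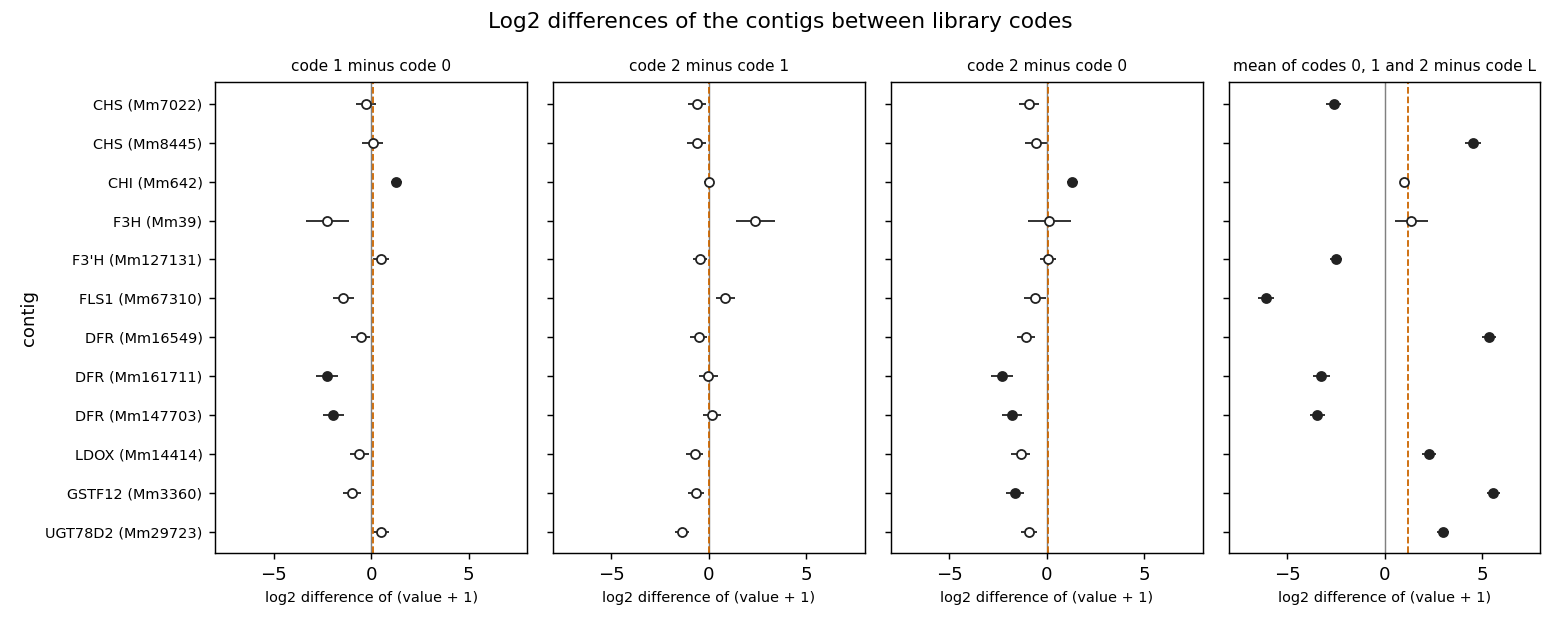
Log2 difference of each of the 12 contigs in the 4 comparisons (x axis: log2 difference on the log2(value + 1) scale; y axis: contigs), with bars for the SE, filled points for called contigs and open points for the others. The dashed line is the median of all contigs kept, at 1.20 in the comparison with code L, where GSTF12 lies at 5.58 and FLS1 at -6.07.

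The other genes of the pathway were described from a list of 52 loci, of which 32 were in the table and 23 were kept as sums. Against code L, 7 of 23 were higher and 7 lower, where 50.3% of all loci were higher and 13.4% lower. Their median log2 difference was 0.36, beside 1.01 for all loci. Among 12 regulators kept, of 21 listed, 4 were higher and 2 lower than in code L, so 6 were called, where 63.6% of all loci were. MYB113, a MYB that activates anthocyanin genes in Arabidopsis, was the farthest on the high side: 22.7 and 31.9 in code 0, 16.5, 23.8 and 15.5 in code 1, 3.49, 6.94 and 10.8 in code 2, and 0.225, 1.76 and 0.373 in code L (log2 difference 3.25, SE 0.333, adjusted p = 3.55e-06). MYB12, an activator of the flavonol branch in Arabidopsis, was the farthest on the low side: 30.1, 26.1 and 8.44 in code L and no more than 2.21 in any other library (-3.83, SE 0.399, adjusted p = 4.15e-06). These activators thus lay on opposite sides of code L, with no overlap between libraries.

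Further pathway loci are named here after their values were seen. MYB111, the close relative of MYB12, was at 30.3, 27.1 and 11.6 in code L and at 1.21 to 3.44 elsewhere (-2.94, SE 0.319, adjusted p = 5.53e-06). The bHLH partners EGL3 (2.32, SE 0.295, adjusted p = 1.8e-05) and GL3 (1.73, SE 0.301, adjusted p = 0.000208) were lower in code L, at 4.65 to 9.16 and 2.23 to 7.88 against 15.0 to 52.4 and 8.07 to 30.2. The call of GL3 was lost under median ratio scaling (0.81). Of the same complex, TT8 (0.63, adjusted p = 0.0108) and TTG1 (0.37, adjusted p = 0.0685) were not called. TT2 was called (1.44, adjusted p = 0.0293), but 5 of 22 alternatives lost it, with 0.91 at equal totals and 0.42 under median ratios. TT8, TTG1 and TT2 all overlapped with code L. At the entry from phenylalanine, the ammonia-lyases were called in opposite directions, but unlike the CHS contigs each overlapped with code L. PAL1 was at 143, 112 and 45.8 in code L and at 6.25 to 113 in the other codes (-1.85, adjusted p = 0.000223), while PAL2 was at 10.8, 4.51 and 10.5 in code L and at 10.1 to 160.2 in the others (1.98, adjusted p = 0.00016). 4CL3, the coumarate ligase tied to flavonoids in Arabidopsis, was at 27.1, 23.6 and 11.4 in code L and at 1.35 to 4.92 elsewhere (-2.52, adjusted p = 1.48e-05). CHIL, a helper protein of chalcone synthase, was at 86.9, 87.5 and 22.0 in code L and at 7.36 to 53.3 elsewhere (-1.69, adjusted p = 0.0012). The remaining called loci were TT10 (2.75) and TT15 (1.38), higher outside code L, and FFT (-1.83) and ACC1 (-1.23), lower. The calls of TT10 (1.73) and TT15 (0.34) were lost under median ratio scaling, and that of ACC1 with a pseudocount of 5 (-0.95). MYB111, 4CL3 and FFT reached the filter through code L alone, and EGL3 and GL3 through the other codes alone. Their directions were thus largely fixed beforehand and are no support.

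**Figure D4:**
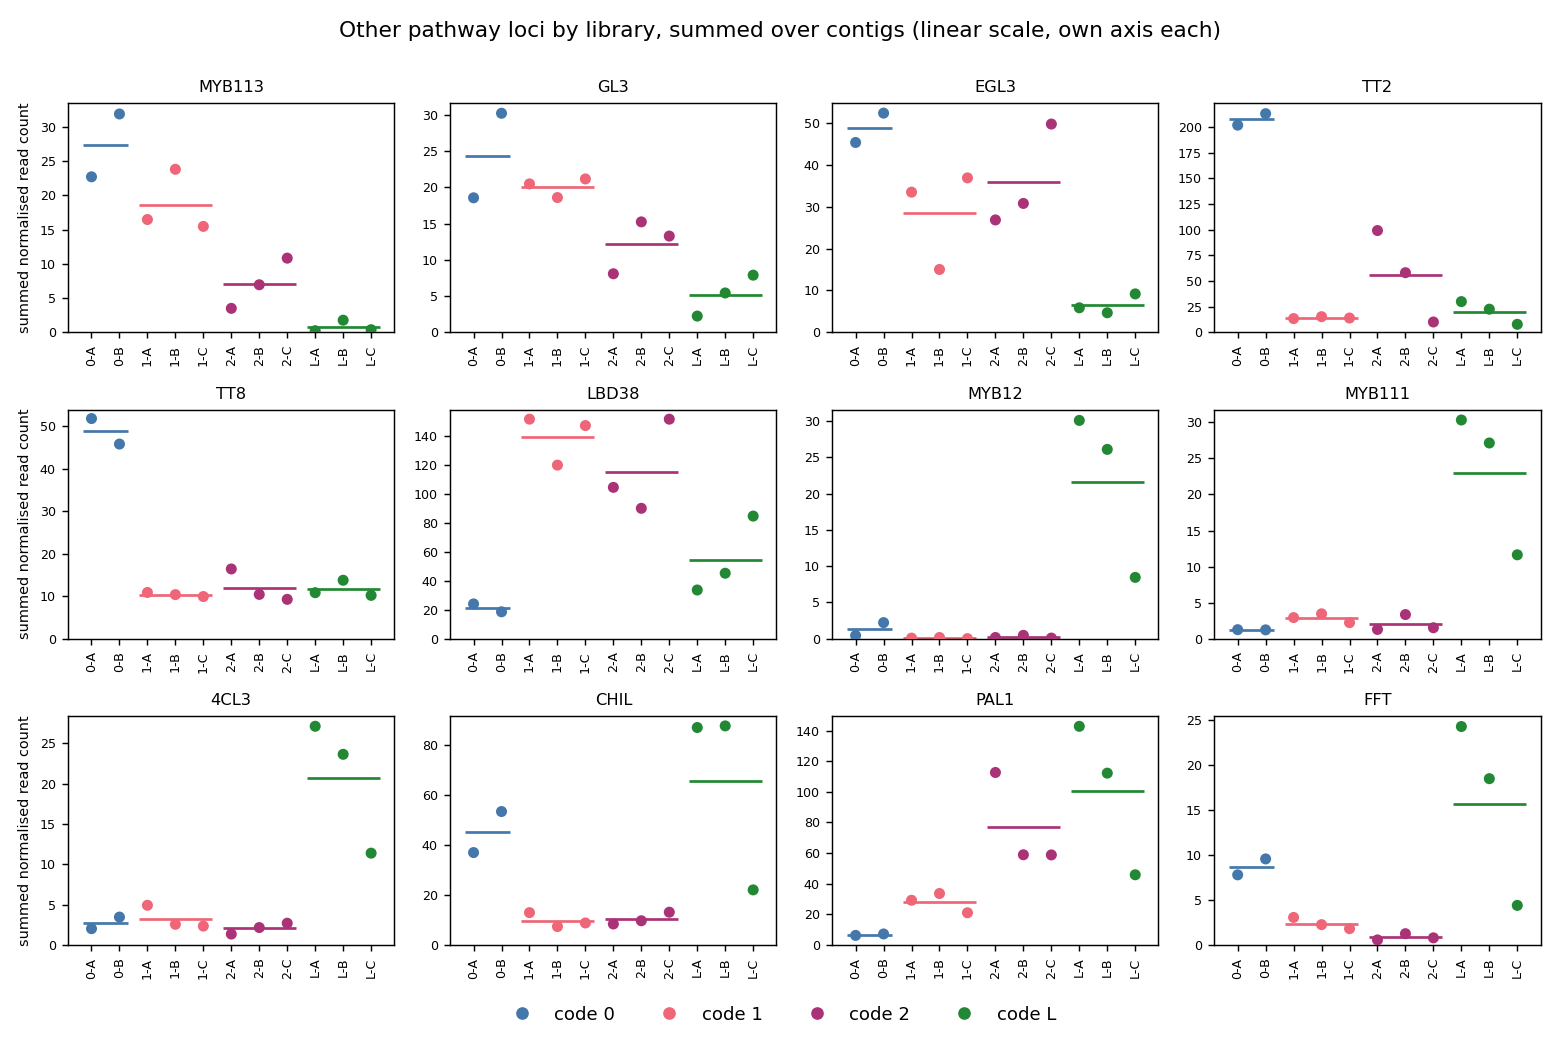
Summed normalised read count of 12 other pathway loci by library (x axis: the 11 libraries, coloured by code; y axis: summed normalised read count, linear, with its own range in each panel). Points are libraries and bars are code means. MYB113 and MYB12 lie on opposite sides of code L, and TT2 is at 202 and 213 in code 0 and 13.3 to 15.2 in code 1.

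Between code 1 and code 0, 4 of the 23 loci were higher and 5 lower, where 22.2% of all loci were called. LBD38, a repressor of anthocyanin genes in Arabidopsis, was the farthest on the high side, at 23.9 and 18.5 in code 0 and 151, 120 and 147 in code 1 (2.66, SE 0.353, adjusted p = 0.000188). TT2, the MYB of proanthocyanidin synthesis in the Arabidopsis seed coat, was the farthest on the low side, at 202 and 213 in code 0 and 13.3, 15.2 and 13.9 in code 1 (-3.79, SE 0.742, adjusted p = 0.00267). Its partner TT8, named after its values were seen, was at 51.9 and 45.9 in code 0 and at 9.92 to 10.9 in code 1 (-2.13, SE 0.264, adjusted p = 0.000122). BAN, which TT2 and TT8 switch on in Arabidopsis, had no contig to set beside them. Named likewise, the proton pump AHA10 (-1.23), the WRKY factor TTG2 (-1.27) and CHIL (-2.12) were lower, and the repressor MYB4 (1.69), PAL1 (1.89) and PAL2 (1.70) were higher. Without 0-A the calls of TTG2, PAL1 and PAL2 were lost (-1.18, 1.80 and 1.67), without 0-B those of CHIL and PAL2 (-1.86 and 1.73), and without 1-A that of PAL2 (1.53).

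Between code 2 and code 0, 4 of the 23 loci were higher and 7 lower, where 22.7% of all loci were called. The farthest were PAL1, at 6.25 and 7.18 in code 0 and 113, 58.9 and 58.8 in code 2 (3.27, SE 0.437, adjusted p = 0.000226), and the flavonoid transporter FFT. FFT was at 7.79 and 9.56 in code 0 and at 0.562, 1.25 and 0.791 in code 2 (-2.38, SE 0.539, adjusted p = 0.00632), a call that was lost without 0-B (-2.25). Between code 2 and code 1, limma called 0 of 23, where 1.37% of all loci were called. At an unadjusted p under 0.05 there were 6 of 23, beside 1301 of all 12123 loci. By role, the 5 loci of phenylpropanoid entry gave 2 higher and 0 lower in code 1 and in code 2 against code 0, and the 12 regulators gave 2 higher and 3 lower in each, beside the 22.2% and 22.7% of all loci called.

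Across the 11 libraries the members formed the same 2 sets, given here as a description, since the libraries fall into separate groups. The log2 values of DFR Mm16549 and GSTF12 Mm3360 had a Pearson r of 0.989, those of CHS Mm8445 and DFR Mm16549 of 0.985, and those of the DFR contigs Mm161711 and Mm147703 of 0.983. The pairs just named had Spearman values of 0.916 to 0.918. CHS Mm7022 followed FLS1 Mm67310 at a Pearson r of 0.911, while Mm8445 ran against FLS1 at -0.911. By rank these were weaker, with Spearman values of 0.745 and -0.5. The CHS contigs Mm7022 and Mm8445 had a Pearson r of -0.736 and a Spearman value of -0.345. The step of FLS1 between code L and the rest, which the filter favours, weighs on its Pearson values. F3H Mm39 was close to none of the named contigs, with r of -0.132 to Mm7022, -0.126 to FLS1 and 0.387 to DFR Mm16549. Among 12114 other loci, the sums closest to LDOX were those of AT1G72440 (annotated as a CCAAT-binding factor, r = 0.963), AT5G66870 (0.963) and AT2G34050 (0.961). AT5G66870, for example, was at 27.0 and 47.4 in code 0 and between 0.46 and 1.20 in code L, with codes 1 (11.5 to 20.7) and 2 (5.06 to 18.6) between them. The sums closest to DFR were AT3G19840 (0.954), AT5G37430 (0.936) and AT2G37990 (0.935), and those closest to CHS were AT1G11340 (0.936), AT2G03140 (0.929) and the chaperonin AT5G20720 (0.925). All points share the 11 libraries and their scaling.

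Values below the filter complete the account. The highest value of each of the 16 contigs left out ranged from 2.18 to 22.7. Just outside were the CHS contig Mm14148, at 22.7 in 2-A and at no more than 4.40 elsewhere, the DFR contig Mm232715 (9.56 in L-C) and the CHI contig Mm102000 (9.12 in 0-B). Just inside were F3'H Mm127131, with 13.0 and 10.9 as its only values over 10, and UGT78D2 Mm29723. The filter was set at 10 in 2 libraries of 11.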

How the data were processed

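The authors deposited a table of normalised read signal, with 1 column for each library, headed as normalised read counts. The tool, per the submitters' processing notes, was kallisto 0.46.1. The sources used here do not say how contigs were assembled, chosen or scaled. Column totals were 631454 to 1168305, values were not whole, and depth in reads is unknown. Libraries were grouped by the code in their descriptions.

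Contigs at 10 or more in at least 2 libraries entered limma 3.58.1 (R 4.3.3) as log2(value + 1), with a mean for each code, the empirical Bayes trend, and all 11 libraries fitted together, two-sided. The same was done on values summed per closest locus, of which 898 contigs have none. Calls needed an adjusted p below 0.05 and a log2 difference of 1 or more in size. The procedure was tested on simulated data with the same noise in every library, at the median SD within code 1. Libraries of code 2 varied more, so that test does not cover unequal spread between codes. Figures used matplotlib 3.10.9.

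Members and lists were chosen with earlier results of these data known. Every kept contig is accounted for. Of the other pathway loci, the called locus with the largest difference per comparison and direction is named, and the 3 loci closest to CHS, DFR and LDOX by Pearson r. Alternatives changed the pseudocount, filter, scaling, trend, weights, grouping, libraries and block. Deviations of same-letter libraries had r of -0.126 to 0.236 over 15 pairs, with 8 over 0.1. The negative ones were 1-A with 2-A (-0.126) and 0-B with 2-B (-0.0186). Pairs of unlike letters were not set beside them, so this cannot decide whether letters pair the libraries. The main fit did not take letters as pairs.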

Additional observations from a re-analysis of the deposited data

How the results depend on the processing

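Called differences of single contigs and locus sums (28) kept their sign in all 587 repeats under 22 alternatives, 537 of them still called and 50 not. Against code L, the 10 contig calls held in every repeat that kept the contig past the filter. Most of these contigs passed it on a single side of code L, so their holding was largely fixed and is no support. Counts of members are followed in brackets by those over all contigs or loci. Contigs called between codes 1 and 0 were 3 (6734 of 26053) in the main fit. A pseudocount of 5 gave 1 (5779), no filter 9 of 28 (13187 of 68650) and a filter of 50 gave 1 of 6 (2071 of 6818). Library weights gave 6 (8802) and only the codes compared 5 (8100). Filed groups gave 0, with 0 at an unadjusted p under 0.05 (3557) and 0 of all contigs called. Leaving out a library outside code 0 gave 1 to 5 (5063 to 7492). Here and below, no count is given without 0-A or 0-B, since code 0 then keeps a single library. Between codes 2 and 1 the main fit gave 0 (304). Library weights gave 1 (1915), which was F3H at 3.28, and left-out libraries 0 to 1 (0 to 1458). Between codes 2 and 0 the main fit gave 4 (6252). No filter gave 8 (11502 of 68650), a filter of 50 gave 2 (1954 of 6818) and only the codes compared 2 (4075). Filed groups gave 0 (0), with 3 (5277) at an unadjusted p under 0.05, and left-out libraries 2 to 7 (5452 to 7163). Against code L the main fit gave 10 (18073). No filter gave 18 (32105 of 68650), a filter of 50 gave 4 (5369 of 6818) and left-out libraries 7 to 12 (16239 to 18195). For locus sums between codes 1 and 0 the main fit gave 2 (2690 of 12123). A pseudocount of 5 gave 1 (2253) and a filter of 50 gave 1 (1419 of 5876). Library weights gave 5 (3160) and only the codes compared 4 (3110). Filed groups gave 0 (0), with 1 (1676) at an unadjusted p under 0.05, and left-out libraries 2 to 4 (2247 to 2960). Between codes 2 and 1 the main fit gave 0 (166), library weights 1 (930) and left-out libraries 0 to 1 (14 to 828). Between codes 2 and 0 the main fit gave 3 (2757). Filed groups gave 0 (7), with 4 (2655) at an unadjusted p under 0.05, and left-out libraries 2 to 5 (2496 to 3054). Against code L the main fit gave 6 (7713), a filter of 50 gave 3 (4200 of 5876) and left-out libraries 6 to 8 (7178 to 8125). Stricter filters test fewer members. Leaving out L-A, L-B or L-C also did, with 11, 10 and 9 member contigs past the filter. The cause of the other changes was not tested. With the letter as a replicate block the counts were 3, 0, 4 and 10 contigs and 2, 0, 3 and 6 loci, so the block changed no count. The block moved limma adjusted p-values against code L both ways, for CHS Mm7022 from 0.00011 to 4.51e-06 and for UGT78D2 Mm29723 from 9.23e-06 to 3.1e-05. Whether the letters pair the libraries is not settled by this. Grouping as filed mixes a library of code 1 with code 0. Depth in reads is unknown, so no floor is given for values listed at 0.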

Other observations

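Some flavonoid and tannin genes differed widely among the 3 libraries of code 2, and their values are given without a test. Library 2-A had F3H Mm39 at 1137, 2-B at 317 and 2-C at 39.4. The sum of TT10, a laccase that browns flavonoids in the Arabidopsis seed coat, was 514 and 531 in 2-A and 2-B but 21.8 in 2-C, beside 154 and 96.6 in code 0, while code 1 (37.2 to 63.3) and code L (9.65 to 22.6) were lower than 2-A and 2-B. TT2 went from 99.2 (2-A) through 58.1 (2-B) to 9.99 (2-C). The CHS contig Mm14148 was listed at 0 in 2-C, with 3.96 in 2-B and 22.7 in 2-A. PAL2 had another order, since 2-B was lowest (55.4) and 2-A (160.2) and 2-C (143) were higher.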
